A study of Mus musculus with 23 samples.

Results

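Glucose, lactate and thyroid hormone reach the brain through carriers in the blood vessel wall, and the levels of 6 genes of these routes were followed in single brain cells sorted by how much of a labelled antibody they carried. The genes were chosen by symbol, 6 of the 32285 genes in the deposited matrices: the glucose carriers Slc2a1 and Slc2a3, the monocarboxylate carrier Slc16a1, the thyroid hormone carriers Slco1c1 and Slco1a4, and the deiodinase Dio2. All 6 symbols were found once. The rule is a list of symbols, drawn up with earlier results of these data known.

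Mice of 3 genotypes received, by tail vein, 45 mg/kg of a protein labelled with the dye AF647. TfR mu/hu KI mice received ATV-TfR, an antibody transport vehicle that binds the transferrin receptor, CD98hc mu/hu KI mice received ATV-CD98hc, which binds the heavy chain CD98hc, and C57BL/6J mice received control IgG. The mice were 3.3 months old by the sample labels and 12 weeks by the series text, all knock-in alleles were on the C57BL/6J background, and 24 hours after the dose the brain was collected, leaving out the olfactory bulb and the hindbrain with the cerebellum. Live cells of 1 male and 1 female were pooled, with 2 pools per treatment, and each pool was sorted by AF647 brightness into negative, low, medium and high bins of about 60000 cells, with gates set on the ATV-TfR mice and used for all treatments. Treatment and genotype coincide and cannot be told apart. The negative bin of control IgG is represented by pool 2 alone, so 23 libraries in 12 groups were analysed. The p-values of bin comparisons measure the spread between libraries, with bins of 1 pool taken as separate and no pool term in the main fit. Those of treatment comparisons measure the spread between pools. Neither measures the spread between single mice.

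Brain endothelial cells form the blood-brain barrier, and their glucose supply to the brain runs through the Slc2a1 product GLUT1, while GLUT3, the product of Slc2a3, is the main glucose carrier of neurons. The Slc16a1 product MCT1 moves lactate, pyruvate and ketone bodies together with protons across membranes. Thyroxine enters through OATP1C1, encoded by Slco1c1, and in the brain the astrocytic deiodinase encoded by Dio2 converts it to the active hormone triiodothyronine; Slco1a4 encodes OATP1A4, an organic anion carrier of the luminal and abluminal vessel membrane that also takes thyroid hormones.

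The promoters are shown because the members differ in base composition. RefSeq (GRCm38.p6) gave the 250 bases before the start of 5 of the 6 genes, and Slc2a3 is named only. Capitals mark the motifs searched on both strands, which were the TATA motif TATAAA, the GC box motif GGGCGG, the CCAAT box motif CCAAT, the E-box motif CACGTG and the CRE motif TGACGTCA; no match overlapped another in these windows. Slc2a1 lies at chr4:119108495-119108744 on the plus strand, Slc16a1 at chr3:104638414-104638663 on the plus strand, Slco1c1 at chr6:141524104-141524353 on the plus strand, Slco1a4 at chr6:141856221-141856470 on the minus strand, and Dio2 at chr12:90739039-90739288 on the minus strand.
Slc2a1: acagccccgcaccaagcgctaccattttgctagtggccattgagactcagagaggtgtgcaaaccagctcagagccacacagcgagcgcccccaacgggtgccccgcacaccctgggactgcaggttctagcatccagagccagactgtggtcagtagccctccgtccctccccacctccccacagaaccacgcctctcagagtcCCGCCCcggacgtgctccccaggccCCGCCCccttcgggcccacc
Slc16a1: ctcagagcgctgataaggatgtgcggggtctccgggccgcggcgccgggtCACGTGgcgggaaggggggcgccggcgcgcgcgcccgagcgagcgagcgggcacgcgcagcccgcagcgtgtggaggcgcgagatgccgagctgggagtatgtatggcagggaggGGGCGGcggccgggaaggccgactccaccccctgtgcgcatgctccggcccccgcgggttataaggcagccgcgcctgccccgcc
Slco1c1: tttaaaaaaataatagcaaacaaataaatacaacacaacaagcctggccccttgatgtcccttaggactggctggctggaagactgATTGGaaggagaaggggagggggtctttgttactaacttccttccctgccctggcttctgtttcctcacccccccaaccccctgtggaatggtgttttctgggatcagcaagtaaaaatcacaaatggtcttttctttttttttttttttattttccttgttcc
Slco1a4: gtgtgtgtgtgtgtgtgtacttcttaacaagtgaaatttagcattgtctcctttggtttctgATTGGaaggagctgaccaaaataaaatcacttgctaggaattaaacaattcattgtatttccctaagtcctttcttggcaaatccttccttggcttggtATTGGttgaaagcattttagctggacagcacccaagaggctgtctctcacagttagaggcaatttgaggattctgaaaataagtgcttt
Dio2: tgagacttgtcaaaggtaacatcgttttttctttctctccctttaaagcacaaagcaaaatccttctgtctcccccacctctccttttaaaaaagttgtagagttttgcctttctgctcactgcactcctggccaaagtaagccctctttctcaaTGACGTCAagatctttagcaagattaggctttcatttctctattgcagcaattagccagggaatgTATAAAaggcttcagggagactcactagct

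The glucose and lactate carrier promoters were rich in G and C, 66.4% with 13 CpG for Slc2a1 and 76.4% with 37 CpG for Slc16a1, against a median of 52.4% and 6 CpG over 32851 promoters. The thyroid genes were below that median, with 42.8% and 0 CpG for Slco1c1, 39.2% and 0 CpG for Slco1a4, and 41.6% and 2 CpG for Dio2. GGGCGG, found in 32.7% of all promoters, lay on the reverse strand 45 and 20 bases before the RefSeq start of Slc2a1 and on the forward strand 85 bases before that of Slc16a1, which also held CACGTG (6.02% of promoters) 200 bases before its start. CCAAT (33.8%) was present on the reverse strand 164 bases before Slco1c1 and 188 and 89 bases before Slco1a4. The Dio2 window held TATAAA (12.4%) 30 bases and TGACGTCA (1.55%) 95 bases before its start. A match describes letters in the window and is no measure of factor binding.

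On GRCm38 the genes spanned 4:119108711-119137983 (Slc2a1), 6:122727809-122801640 (Slc2a3), 3:104638668-104658462 (Slc16a1), 6:141524368-141570177 (Slco1c1), 6:141805440-141856199 (Slco1a4) and 12:90724552-90738438 (Dio2). These spans are from GENCODE, whose starts differ from those of RefSeq: the end of the Slc2a1 promoter window lies inside the GENCODE span, and the Dio2 window lies apart from it. Slco1c1 and Slco1a4 both lie on chromosome 6, on opposite strands, with 235 kb between them. Slco1a4 belongs to a cluster of related Slco1a genes, and whether reads are shared with these paralogues was not measured.

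The libraries held 265025 barcodes and 1129743851 unique molecular identifiers (UMIs), 1861238 to 90307818 per library. After filtering, 234739 cells remained, 495 to 19336 per library, with a median of 2123 to 4872 UMIs per cell, and no pair of libraries shared more than 1.14% of the smaller library's barcodes. Clusters were named from marker lists, and the names are rebuilt, not the study's: 41 of 52 clusters fell into 14 classes, and 11 clusters with 21710 cells (9.25%) stayed unnamed. Of the unnamed clusters, 5 had the endothelial list and 2 the astrocyte list as the one most fully detected, and 1 of these 2 carried most endothelial markers as well. The largest classes were astrocyte-like (92906 cells), endothelial-like (80321), microglia-like (11388), oligodendrocyte-like (7461) and pericyte-like (6488). Levels are UMIs of a gene per 1000000 UMIs (CPM), summed over a class in a library or pool. They are not adjusted for transcript length and are therefore compared between cells, not between genes.

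Slc2a1 was highest in endothelial-like cells, at 1740 ± 174 CPM (SD, n = 6 pools over all bins, range 1510 to 1950). Pericyte-like cells followed at 701 ± 150 CPM, 2.48-fold lower, and the pools of the 2 classes did not overlap. Ependymal-like cells came next at 350 ± 75.3 CPM, below every pericyte-like pool. From there to the lowest class, microglia-like cells at 56.5 ± 16.1 CPM, each class overlapped the next, and astrocyte-like cells had 128 ± 7.78 CPM (n = 5). Within the endothelial-like cells, clusters with arterial markers held 2230 ± 250 CPM, capillary ones 1690 ± 166 CPM and venous ones 1600 ± 109 CPM (n = 6 each); the arterial pools began at 1950 CPM, above all capillary pools (highest 1900 CPM).

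Slc2a3 had a different order. Neutrophil-like cells were highest, at 277 ± 141 CPM (n = 6, range 104 to 432), 5.24-fold over neuron-like cells at 52.8 ± 20 CPM (n = 4), with no overlap. Border macrophage-like cells had 26.5 ± 8.65 CPM, oligodendrocyte precursor-like cells 22.4 ± 9.8 CPM and microglia-like cells 11.6 ± 5.87 CPM. Endothelial-like cells were last of the 14 classes, at 0.292 ± 0.0328 CPM, with no more than 28 UMIs in any pool. Endothelial-like cells thus stood first of 14 classes for Slc2a1 and last for Slc2a3, a description without a test.

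Slc16a1 was again highest in endothelial-like cells, at 446 ± 27.1 CPM (n = 6, range 412 to 478), 2.07-fold over pericyte-like cells at 215 ± 67.6 CPM and with no overlap. Ependymal-like cells (100 ± 19.1 CPM) and oligodendrocyte-like cells (90.5 ± 8.68 CPM) overlapped each other, and astrocyte-like cells had 46.5 ± 1.75 CPM. The fold and the lack of overlap hold for the sum over bins: in the negative bins alone endothelial-like cells held 186 ± 142 CPM of Slc16a1 (n = 5, range 55.4 to 404) and overlapped ependymal-like cells, the next class at 103 ± 21.4 CPM. In contrast to Slc2a1, Slc16a1 was low in arterial clusters, at 141 ± 36.9 CPM (highest pool 175 CPM), against 479 ± 30 CPM in capillary clusters (lowest pool 435 CPM) and 509 ± 65.5 CPM in venous clusters. The capillary and venous pools overlapped.

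Slco1c1 reached 1540 ± 200 CPM in endothelial-like cells (n = 6, range 1240 to 1840) and 665 ± 175 CPM in pericyte-like cells. It was also high outside the vessel classes: astrocyte-like cells held 470 ± 50.9 CPM (n = 5, range 403 to 538) and choroid plexus epithelial-like cells 372 ± 56 CPM. Astrocyte clusters with telencephalic markers held 674 ± 58.5 CPM and those with non-telencephalic markers 224 ± 14 CPM, with no overlap. Slco1a4 was highest in endothelial-like cells too, at 2870 ± 351 CPM (range 2570 to 3420) against 1130 ± 264 CPM in pericyte-like cells. Its lowest mean over all bins was in astrocyte-like cells, at 10.8 ± 8.33 CPM. In the negative bins border macrophage-like (n = 3) and neuron-like cells (n = 1) were lower, with 0 UMIs of Slco1a4. Its arterial, capillary and venous levels were 2420 ± 366, 2900 ± 373 and 2970 ± 355 CPM and overlapped.

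Dio2 was highest in astrocyte-like cells, at 106 ± 12.6 CPM (n = 5, range 89.1 to 120). This was 5.22-fold over oligodendrocyte precursor-like cells at 20.3 ± 5.83 CPM (n = 4), with no overlap. That fold holds for the sum over bins. In the negative bins alone neuron-like cells came next, at 87.8 CPM (1 pool, 45 cells, 10 UMIs) against 119 ± 5.79 CPM in astrocyte-like cells. Endothelial-like cells held 0.443 ± 0.284 CPM. Telencephalic astrocyte clusters had 154 ± 13.2 CPM and non-telencephalic ones 50.1 ± 7.42 CPM. The same clusters ordered Slc2a1 the other way, with 115 ± 7.6 CPM in telencephalic and 151 ± 12 CPM in non-telencephalic clusters, and none of these pools overlapped.

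**Figure D1:**
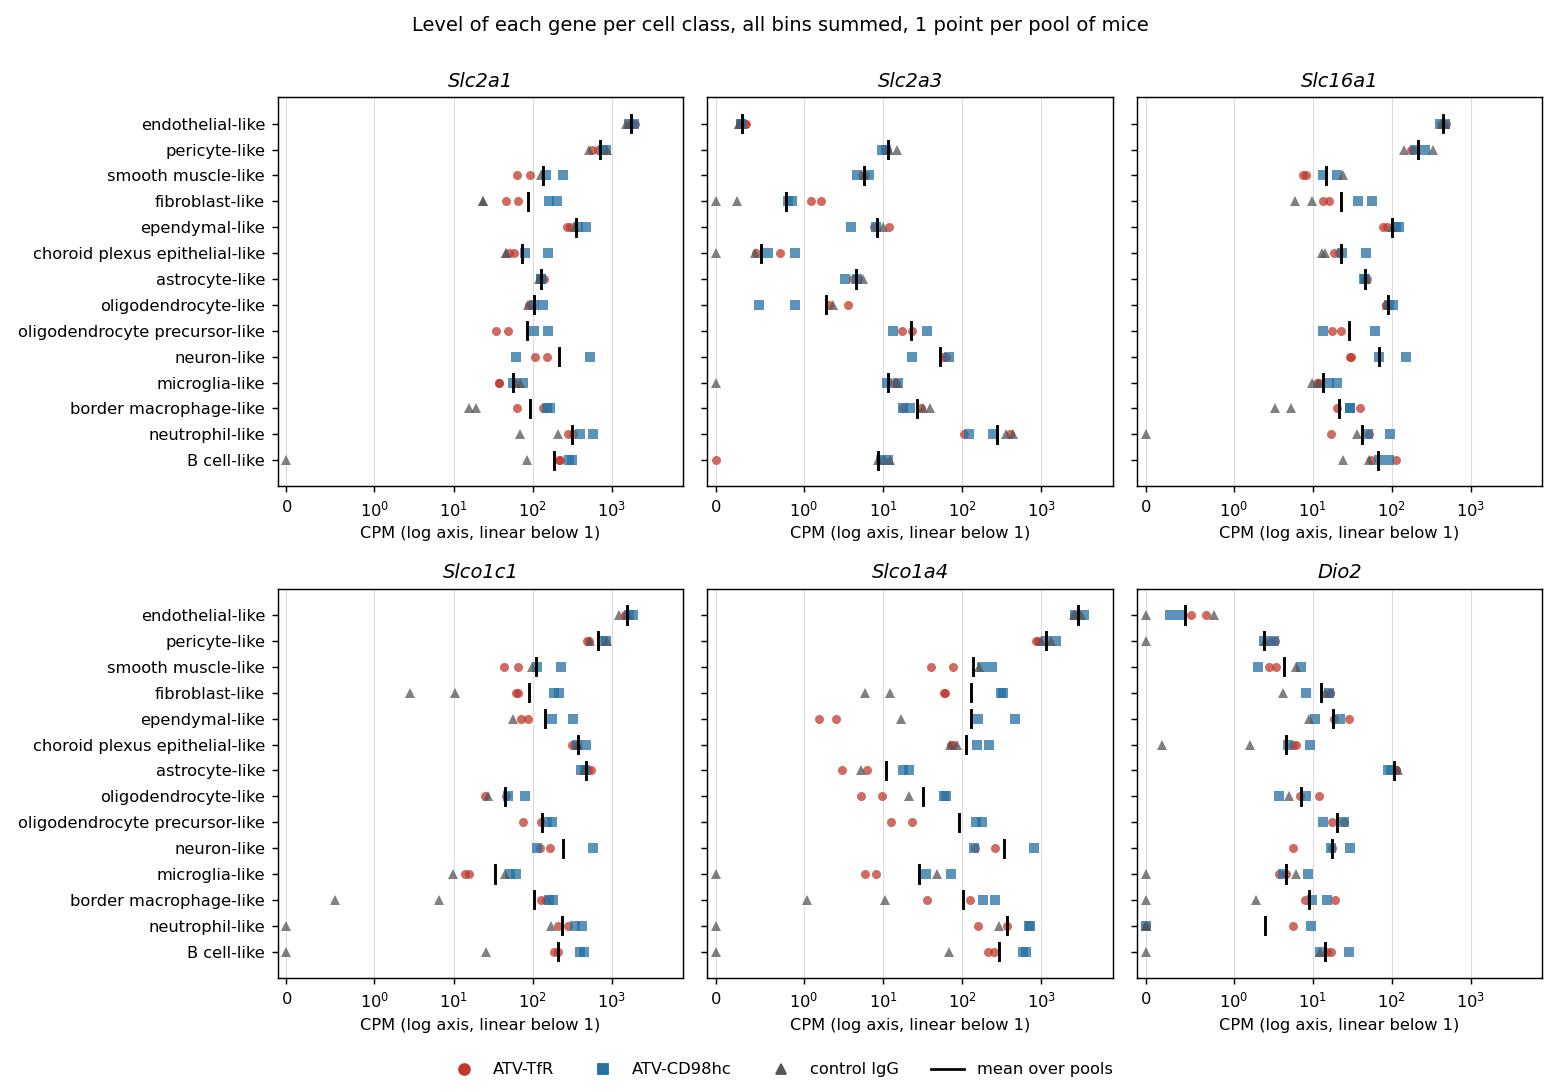
CPM of the 6 genes (horizontal axis, symmetric log scale) in 14 classes (vertical axis), 1 point per pool over all bins with a bar at the mean. Slc2a1, Slc16a1, Slco1c1 and Slco1a4 are highest in endothelial-like cells, Dio2 in astrocyte-like cells and Slc2a3 in neutrophil-like cells.

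The pericyte-like levels moved with endothelial RNA. In pericyte-like cells the 12 endothelial markers summed to 515 to 9360 CPM in negative bins, control IgG included (mean 2340 CPM, n = 5, 0 to 2 markers at 0). In the high bins, of the ATVs only, they summed to 18500 to 20200 CPM (n = 4, none at 0). Endothelial-like cells of those high bins held 33700 to 34900 CPM. Per 100 UMIs of these markers, pericyte-like cells of the high bins held 5.12 UMIs of Slc2a1, 1.54 of Slc16a1, 4.68 of Slco1c1 and 8.12 of Slco1a4. Endothelial-like cells of the same bins held 5.36, 1.43, 4.83 and 8.63, so the ranges over libraries overlapped for each gene. In the negative bins alone ependymal-like cells stood second for Slc2a1 (413 ± 52.1 CPM, n = 5) and astrocyte-like cells second for Slco1c1 (530 ± 61.3 CPM, n = 5), ahead of pericyte-like cells in both. In pericyte-like cells of the negative ATV bins Slc2a1 was at 28.5 to 37.7 CPM and Slco1c1 at 4.41 to 9.18 CPM.

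Astrocyte-like cells did not share that ratio for most members. Per 100 endothelial marker UMIs in the high bins they held 14.5 of Slc2a1, 4.89 of Slc16a1, 33.7 of Slco1c1 and 6.45 of Dio2. Over all bins these values were 119, 42.9, 445 and 101, against 5.12, 1.32, 4.56 and 0.00131 in endothelial-like cells. For Slco1a4 they held 6.61 over all bins (range 4.64 to 8.68), within reach of the 8.5 of endothelial-like cells (7.53 to 10.3). Also over all bins, choroid plexus epithelial-like cells held 60 UMIs of Slco1c1 and 14.5 of Slco1a4, and ependymal-like cells 21 of Slc2a1, per 100.

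**Figure D2:**
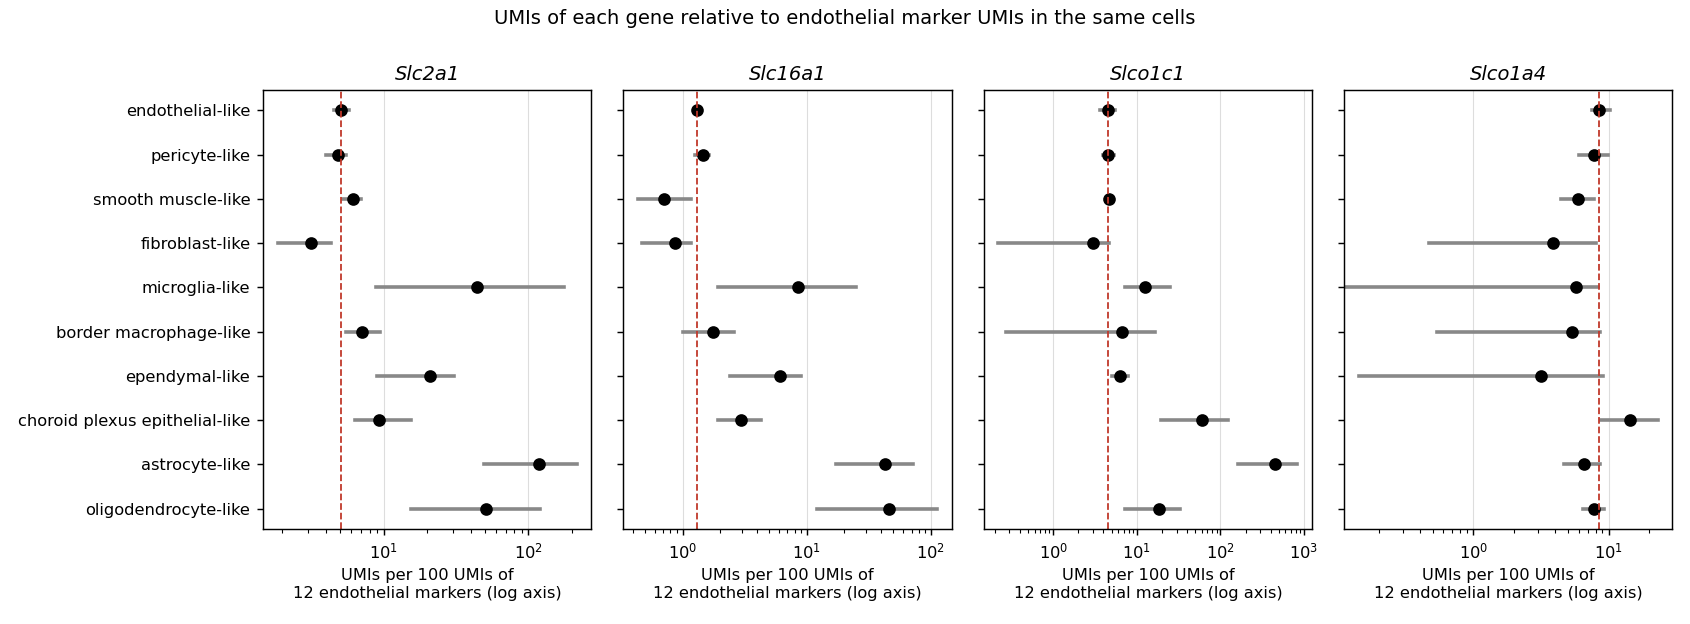
UMIs of each gene per 100 UMIs of 12 endothelial markers (horizontal axis, log scale) in 10 classes, summed over all bins. Points are means over pools, bars their range, and the dashed line is the endothelial-like value. Pericyte-like cells lie at the line for Slc2a1, Slc16a1, Slco1c1 and Slco1a4, and astrocyte-like cells lie far above it for Slco1c1 and near it for Slco1a4.

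Genes most like each member over the 14 classes (Pearson correlation of log2(CPM + 1) among 13444 genes, a description in which all points share libraries) were Slc30a1 (0.961), Polk (0.952) and Tecrl (0.931) for Slc2a1, and Slc2a6 (0.894), Atg7 (0.86) and Pram1 (0.853) for Slc2a3. Among those most like Slc16a1 were Pnpla6 (0.924) and Slc2a1 (0.885). Slco1c1 was most like Ccdc141 (0.982), Aqp11 (0.925) and Cd320 (0.918), and Slco1a4 most like Sema3c (0.994), Cldn5 and Cyyr1 (both 0.991). For Dio2 they were Gdpd2 (0.963), Etnppl (0.948) and Cxcl14 (0.943).

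Whether endothelial cells that held more antibody differed in these carriers was asked by setting the high bin against the negative bin of each ATV. Slc16a1, Slco1a4 and Slco1c1 were higher in the high bin with both ATVs, while Slc2a1 did not pass the test over all endothelial-like cells. For Slc16a1, the ATV-TfR libraries read 195 and 62.8 CPM in the negative bin, 100 and 57.7 in low, 239 and 174 in medium, and 514 and 457 in high. The ATV-CD98hc libraries read 55.4 and 211 CPM in negative, 171 and 249 in low, 387 and 441 in medium, and 474 and 522 in high. Every high library was above every negative and low library of its ATV. In edgeR's quasi-likelihood test with Benjamini-Hochberg adjustment over 14990 genes, the log2 difference was 1.88 (SE 0.37, adjusted p = 0.00153) with ATV-TfR and 2.13 (SE 0.41, adjusted p = 0.00193) with ATV-CD98hc.

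Slco1a4 read 1330 and 1430 CPM in the negative and 2890 and 2680 in the high bin with ATV-TfR, and 1750 and 1610 against 3540 and 2700 with ATV-CD98hc. Neither pair of groups overlapped, and the log2 differences were 1.03 (SE 0.21, adjusted p = 0.00208) and 0.95 (SE 0.21, adjusted p = 0.00693) by edgeR. Slco1c1 read 929 and 997 against 1530 and 1490 CPM, and 1360 and 1080 against 1890 and 1710 CPM. These did not overlap either, with log2 differences of 0.67 (SE 0.18, adjusted p = 0.0179) and 0.61 (SE 0.18, adjusted p = 0.049) by edgeR.

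Slc2a1 stayed within 1440 to 2150 CPM in all ATV libraries. Its log2 differences were 0.37 (95% interval 0 to 0.74, adjusted p = 0.336 by edgeR) and 0.20 (adjusted p = 0.739), and the ATV-CD98hc groups overlapped, at 1520 and 1840 against 1690 and 1990 CPM. Slc2a3 and Dio2 did not pass with either ATV. Dio2 had 0 and 2 UMIs in the negative and 13 and 5 in the high libraries of ATV-TfR (log2 difference -4.21, adjusted p = 0.218 by edgeR), and Slc2a3 1 and 0 against 15 and 14 (-2.54, adjusted p = 0.548), out of 587283 UMIs of all genes in the negative and 103336139 in the high libraries. With each ATV 3 members were called higher, where 1.29% of all genes tested were called higher with ATV-TfR and 1.1% with ATV-CD98hc (6.22% and 4.19% in either direction). The difference between the ATVs was called by edgeR for 0 of 14990 genes (0%; 654 at an unadjusted p under 0.05, and 1 called by DESeq2), with 95% intervals on the log2 scale of -1.38 to 0.88 for Slc16a1, -0.5 to 0.66 for Slco1a4 and -0.42 to 0.55 for Slco1c1.

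**Figure D3:**
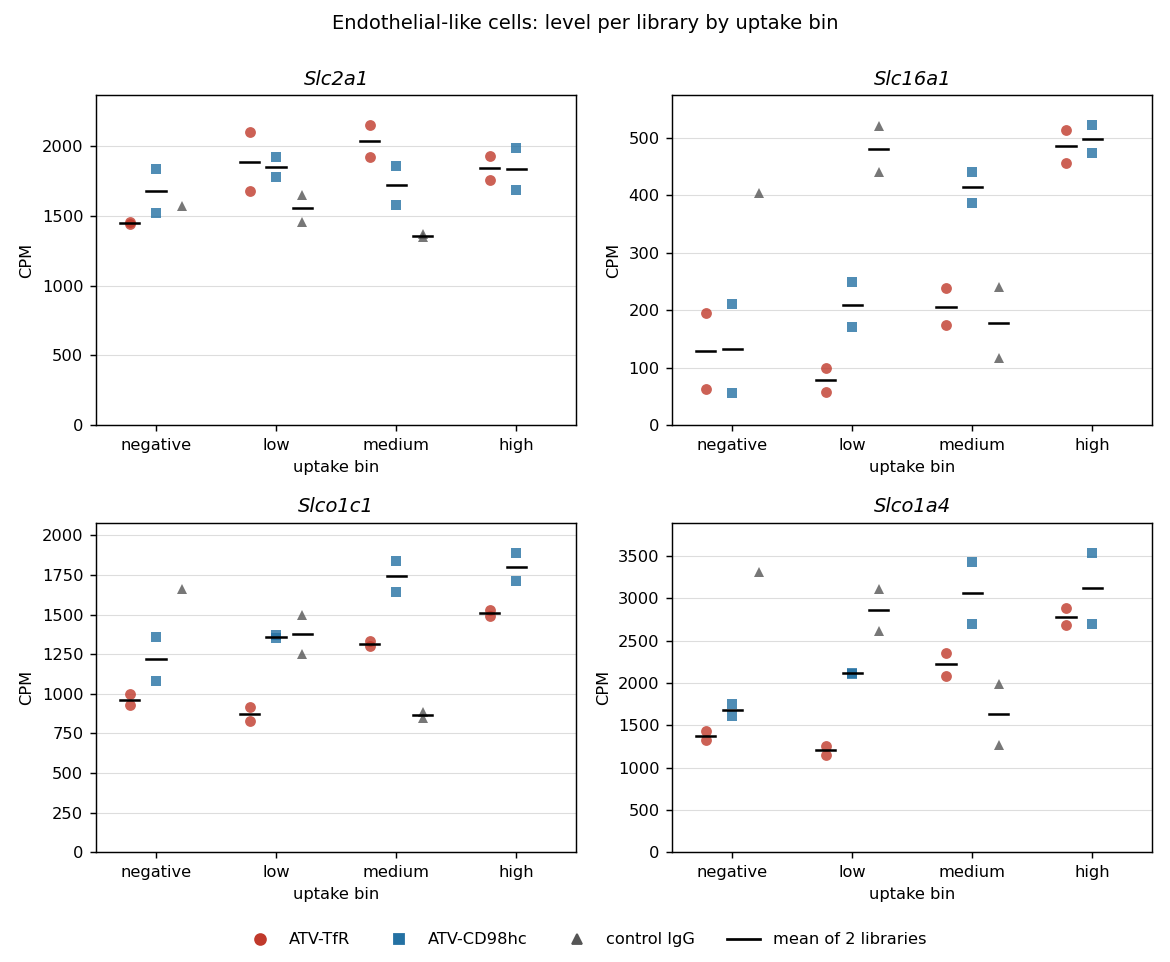
CPM of Slc2a1, Slc16a1, Slco1c1 and Slco1a4 in endothelial-like cells (vertical axes from 0) by brightness bin and treatment, 1 point per library with at least 20 cells and a line at the mean. Slc16a1 climbs from 55.4 to 211 CPM in the negative to 457 to 522 CPM in the high bins of the ATVs, while Slc2a1 stays within 1440 to 2150 CPM.

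The negative libraries of the ATVs held few endothelial-like cells, 74 and 51 with ATV-TfR and 66 and 46 with ATV-CD98hc, against 8155 to 13247 in the high libraries. Without ATV-TfR pool 2 no member passed (Slc16a1 1.51, adjusted p = 0.194; Slco1a4 1.22, adjusted p = 0.117; Slco1c1 0.83, adjusted p = 0.279, edgeR), and without ATV-TfR pool 1 Slc16a1 alone did (2.94, adjusted p = 0.009). With the unnamed clusters of endothelial markers added, an alternative chosen after seeing the data, Slc2a1 (1.08, adjusted p = 0.000872 by edgeR) and Dio2 (-4.16, adjusted p = 0.0218) passed too with ATV-TfR, and Slc16a1 was at 2.47. A cluster among those added, led by Plvap, Igfbp3 and Esm1 (340 cells), held 160 CPM of Slc2a1, against 1090 to 2030 CPM in the others. The part of that cluster in these calls was not tested. For ATV-CD98hc, Slc16a1 passed without pool 1 (1.45, adjusted p = 0.0242) and without pool 2 (log2 difference 3.21), Slco1a4 passed without pool 2 alone (1.14, adjusted p = 0.00259), and Slco1c1 did not pass without either pool (adjusted p = 0.0892 and 0.249).

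Cell composition moved with the bins. Clusters with arterial markers were 55.4% and 56.9% of endothelial-like cells in the negative ATV-TfR libraries and 51.5% and 45.7% in the negative ATV-CD98hc libraries, but 5.93% to 7.22% in the high ones. Astrocyte markers (11 genes) summed to 123 to 326 CPM in the negative, 512 to 1680 CPM in the low and 76.8 to 95.1 CPM in the high libraries of the ATVs, and their part in the results was not tested. The difference in Slc16a1 was present within arterial clusters. ATV-TfR libraries read 46.9 and 6.96 CPM in negative against 223 and 184 in high, and ATV-CD98hc libraries 21.2 and 26.2 against 208 and 221. Those negative libraries held 41 and 29 arterial cells with ATV-TfR and 34 and 21 with ATV-CD98hc, so their values rest on few UMIs. These alternatives within clusters were chosen after seeing the data, except for capillary cells. Within arterial cells the log2 differences of Slc16a1 were 2.92 (adjusted p = 3.99e-06) and 3.33 (adjusted p = 1.45e-05) by edgeR, where 4.28% and 2.57% of genes were called.

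The capillary clusters include a cluster of 9106 cells with 3 of 6 capillary and 3 of 8 arterial markers detected. The others had 5 or 6 of 6 capillary markers, and shifts of makeup among capillary clusters were not tested. Within capillary clusters Slc16a1 read 98.9 and 158 CPM in negative against 497 and 543 in high with ATV-CD98hc (log2 difference 2.37, adjusted p = 0.00286 by edgeR). With ATV-TfR the single negative library of at least 20 cells read 294 CPM against 533 and 474, a log2 difference of 1.00 that did not pass (adjusted p = 0.427). Slco1a4 passed in capillary clusters with both ATVs (1.31, adjusted p = 0.0192; 1.11, adjusted p = 0.00948) and so did Slco1c1 (1.33, adjusted p = 0.00963; 1.13, adjusted p = 0.00451), where 1.44% and 1.69% of genes were called. The ATV-TfR values rest on that 1 negative library of 30 cells, which is assumed to vary like the other groups. The median over all genes tested in capillary clusters was itself 0.40 and 0.35, so these differences stand above medians that far from 0. Slc2a1 was lower in the negative bins, control IgG included, than over all bins in capillary and in arterial clusters. Capillary clusters held 1320 ± 238 (n = 4) against 1690 ± 166 CPM (n = 6), and the pools overlapped. Arterial clusters held 1870 ± 224 (n = 5) against 2230 ± 250 CPM (n = 6), also with overlap. The part of cluster makeup in the level Slc2a1 sum was not tested.

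**Figure D4:**
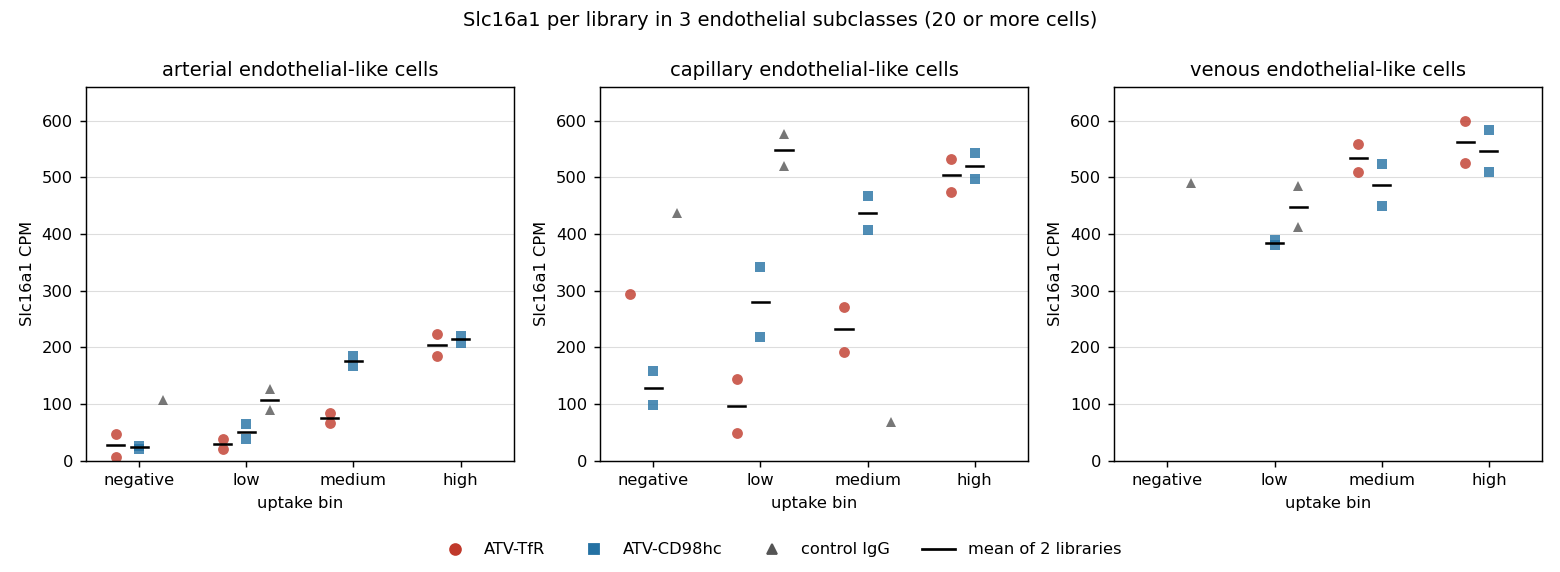
Slc16a1 CPM (vertical axis from 0) in arterial, capillary and venous endothelial-like clusters by bin and treatment, 1 point per library with at least 20 cells. Arterial values rise from 6.96 to 46.9 CPM in the negative ATV bins to 184 to 223 CPM in the high bins, below the capillary values of the same bins.

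The low bin of each treatment was set against its negative bin because control IgG had 816 and 2031 endothelial-like cells there, but 22 and 34 in its medium bin. With the ATVs no member was called by edgeR, where 0.934% (ATV-TfR) and 0.52% (ATV-CD98hc) of genes were. With control IgG, Dio2 had 15 UMIs in the single negative library and 0 in both low libraries, at least 8.44-fold lower (floor of 3 counts over the group). Dio2 was called there, but not with a stricter filter or within capillary or arterial cells, and nothing is read from the call. Astrocyte markers moved with Dio2, at 311 CPM in that negative library and 49.4 and 62.1 CPM in the low ones, and their part was not tested. Slc16a1 was at 404 CPM in that negative library and at 441 and 521 CPM in the low ones, with a log2 difference of 0.25 (95% interval -0.48 to 0.98). Slc16a1 was at 240 and 116 CPM in its medium libraries, and its high libraries held 10 and 13 cells and were not fitted.

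Summed over all bins, no member separated the endothelial-like cells of the 3 treatments in the test. Slc16a1 read 478 and 422 CPM with ATV-TfR, 412 and 465 with ATV-CD98hc, and 433 and 466 with control IgG, and the groups overlapped. By edgeR 0 of 16185 genes (0%) were called in each of the 3 comparisons, with 1245, 737 and 412 genes at an unadjusted p under 0.05 for ATV-TfR against IgG, ATV-CD98hc against IgG and ATV-TfR against ATV-CD98hc, and 194, 103 and 9 called by DESeq2. The 95% intervals for Slc16a1 were -0.29 to 0.42, -0.37 to 0.35 and -0.28 to 0.43 on the log2 scale. The 2 comparisons with control IgG share its pools, which are sums over different bins. Pool 1 has no negative library and held mainly low cells (816), while pool 2 held 2233 negative and 2031 low cells. The ATV sums held mainly medium and high cells.

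Within the low bins alone Slc16a1 and Slco1a4 separated the treatments. Slc16a1 read 100 and 57.7 CPM with ATV-TfR, 171 and 249 with ATV-CD98hc, and 441 and 521 with control IgG, in 3 groups that did not overlap. The log2 differences were -2.63 for ATV-TfR against control IgG (adjusted p = 3.08e-09 by edgeR), -1.23 for ATV-CD98hc against control IgG (adjusted p = 2.48e-05) and -1.40 between the ATVs (adjusted p = 0.00044), where 21.1%, 17.5% and 5.1% of genes were called. Slco1a4 differed in the same order, with 1260 and 1150, 2120 and 2110, and 2610 and 3110 CPM and log2 differences of -1.30 (adjusted p = 1.58e-06), -0.48 (adjusted p = 0.0429) and -0.82 (adjusted p = 0.00301). The same gate held different cells: arterial clusters made up 45.3% and 47.3% of the low cells with ATV-TfR, 20.8% and 25% with ATV-CD98hc, and 2.45% and 2.22% with control IgG, whose low cells were 59.7% and 45.5% venous. Within capillary clusters of the low bins Slc16a1 read 144 and 49.3 CPM with ATV-TfR, 219 and 342 with ATV-CD98hc, and 520 and 577 with control IgG, again without overlap. Slco1c1 was lower with ATV-TfR than with control IgG (log2 difference -0.71, adjusted p = 0.002 by edgeR) and than with ATV-CD98hc (log2 difference -0.65, adjusted p = 0.0174). Dio2 had 5 and 15 UMIs in the low libraries of ATV-TfR, 9 and 13 in those of ATV-CD98hc and 0 in both of control IgG, and was called in all 3 comparisons. Astrocyte markers moved with it, at 1030 and 1680, 512 and 793, and 49.4 and 62.1 CPM, and their part was not tested. In the negative bins, with 1 control library, Slc16a1 was lower than with control IgG by a log2 difference of -1.58 with ATV-TfR and -1.76 with ATV-CD98hc (adjusted p = 1.28e-06 and 1.48e-06 by edgeR), where 6.1% and 3.74% of genes were called. These p-values hold no spread of the control group, whose 1 library is assumed to vary like the others. The control library was 9.49% arterial and 82.8% capillary, and the ATV ones 45.7% to 56.9% arterial. Within clusters Slc16a1 read 438 CPM in its capillary and 107 CPM in its arterial cells, above the ATV libraries of at least 20 cells in both (98.9 to 294 and 6.96 to 46.9 CPM).

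In astrocyte-like cells the same comparison of high with negative bins gave a different pattern for the 2 ATVs: Slco1c1 and Dio2 fell with ATV-CD98hc and did not pass with ATV-TfR. Dio2 read 116 and 115 CPM in the negative and 46.2 and 29.8 CPM in the high libraries of ATV-CD98hc, a log2 difference of -1.63 (SE 0.18, adjusted p = 6.79e-06 by edgeR). Slco1c1 read 502 and 617 CPM against 237 and 298 CPM, a log2 difference of -1.12 (SE 0.14, adjusted p = 2.89e-05). Neither pair of groups overlapped. With ATV-TfR the log2 differences were -0.08 for Dio2 and -0.06 for Slco1c1 (adjusted p = 0.679 and 0.795). The difference between the ATVs itself passed for Dio2 (1.55, SE 0.22, adjusted p = 0.00032) and Slco1c1 (1.06, SE 0.19, adjusted p = 0.00226), where 6.72% of 16085 genes did. Without ATV-TfR pool 1 the Slco1c1 difference was 1.00 and no longer passed (adjusted p = 0.0802), while Dio2 was at 1.49 (adjusted p = 0.0131).

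The share of non-telencephalic clusters moved with these values. The ATV-CD98hc high libraries held 162 and 168 non-telencephalic against 26 and 33 telencephalic cells, and their negative libraries 1625 and 589 against 1354 and 924. In the ATV-TfR high libraries the counts were 262 and 159 against 329 and 228. Within telencephalic clusters the difference between the ATVs was 0.37 for Dio2 (adjusted p = 0.696 by edgeR) and 0.81 for Slco1c1 (adjusted p = 0.0633), and within non-telencephalic clusters -0.17 (adjusted p = 0.948) and -0.27 (adjusted p = 0.657), so neither passed within a type of cluster, where 0.501% and 0.308% of genes were called. These were chosen after seeing the data.

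High was also set against negative within each type of cluster. In non-telencephalic clusters Dio2 fell with both ATVs, from 84.8 and 65.3 to 28.4 and 21.1 CPM with ATV-TfR (log2 difference -1.53, adjusted p = 6.53e-05 by edgeR) and from 47.9 and 40.1 to 23.7 and 10.9 CPM with ATV-CD98hc (-1.37, adjusted p = 0.00953), where 11.7% and 4.8% of genes were called. In telencephalic clusters Dio2 did not pass (-0.01 with ATV-TfR, where 15% of genes were called, and -0.38 with ATV-CD98hc). Slco1c1 fell in telencephalic clusters with ATV-CD98hc, from 723 and 780 to 370 and 427 CPM (-0.96, adjusted p = 0.000649, where 2.25% of genes were called), and was at -0.01 in non-telencephalic ones.

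**Figure D5:**
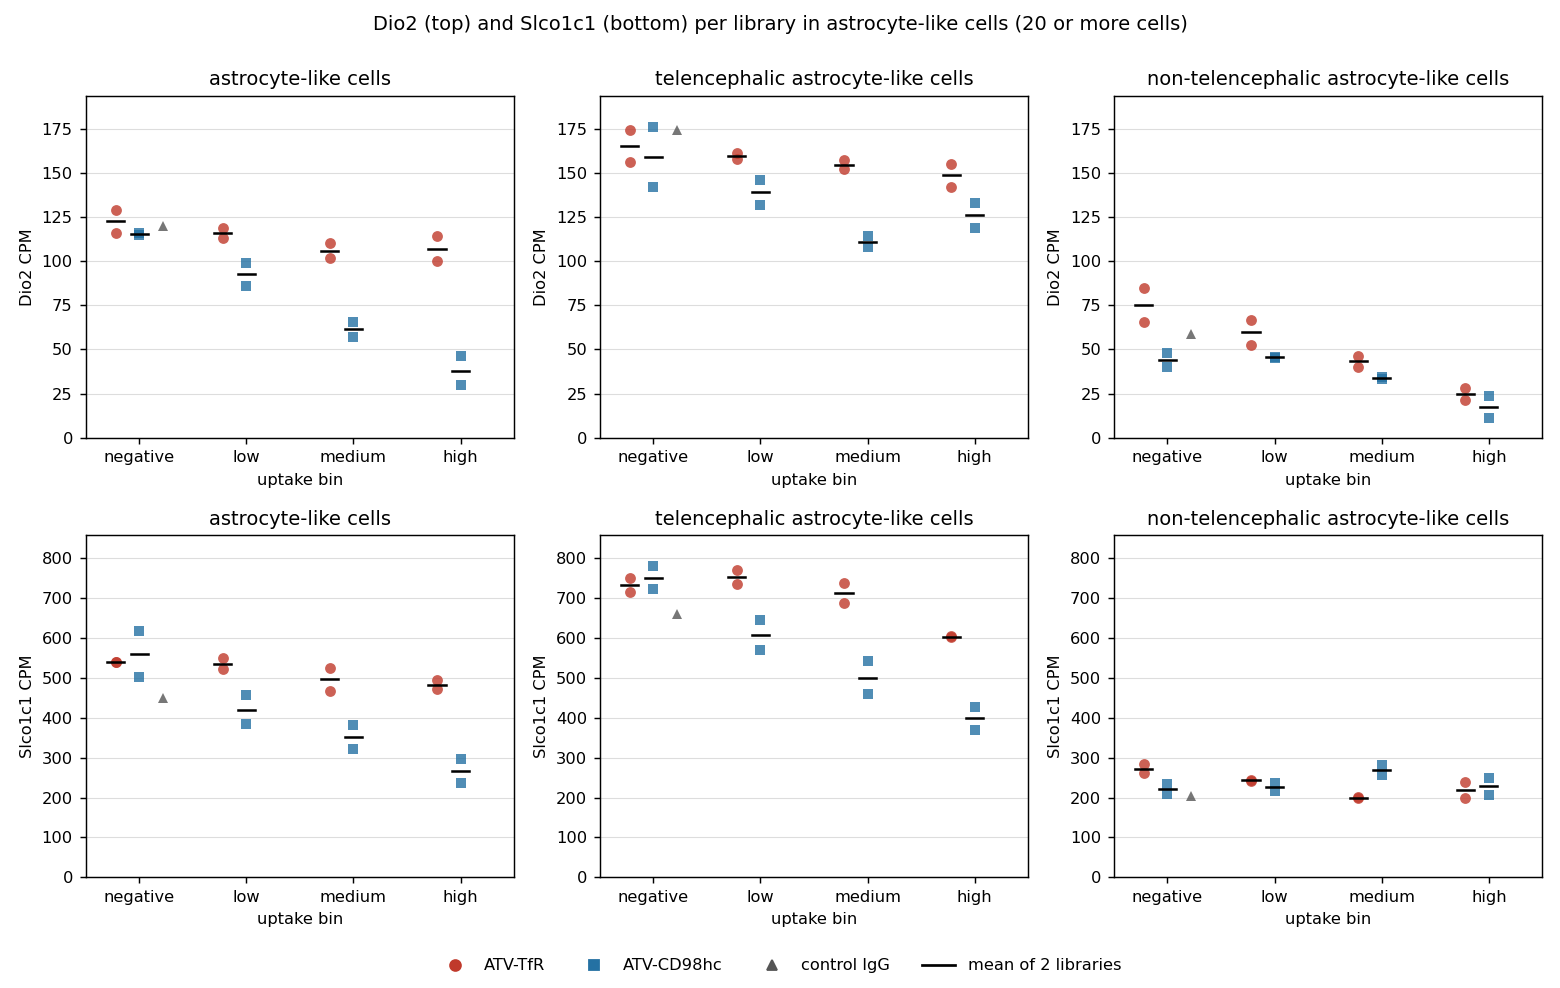
CPM of Dio2 (top) and Slco1c1 (bottom) by bin and treatment in all, telencephalic and non-telencephalic astrocyte-like cells, 1 point per library and a line at the mean. In all astrocyte-like cells the ATV-CD98hc high libraries lie at 29.8 and 46.2 CPM of Dio2, against 115 and 116 CPM in its negative libraries.

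Slco1a4 rose in astrocyte-like cells of the high bins with both ATVs, and Slc2a1 and Slc16a1 rose with ATV-TfR. Slco1a4 went from 0.569 and 0.782 to 106 and 61.4 CPM with ATV-TfR (log2 difference 7.07, adjusted p = 1.72e-08 by edgeR) and from 0.0684 and 1.19 to 112 and 82.4 CPM with ATV-CD98hc (7.79, adjusted p = 7.61e-08). With ATV-TfR, Slc2a1 rose from 129 and 128 to 189 and 176 CPM (0.61, SE 0.11, adjusted p = 0.000534) and Slc16a1 from 43.9 and 42.6 to 75.4 and 58 CPM (0.75, SE 0.13, adjusted p = 0.000506). With ATV-CD98hc neither passed (0.28, adjusted p = 0.213; 0.05, adjusted p = 0.955). With each ATV 3 members were called, where 18.9% of genes were with ATV-TfR and 9.75% with ATV-CD98hc; Slc2a3 was not among them (-1.16, adjusted p = 0.1 with ATV-TfR), but it passed with pools as a replicate block (-1.17, adjusted p = 0.0324 by edgeR).

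Endothelial RNA moved with these rises. The 12 endothelial markers summed to 22.9 to 27.6 CPM in astrocyte-like cells of the negative ATV libraries, with 0 to 2 markers at 0, and to 892 to 1480 CPM in the high libraries, with none at 0. Per 100 UMIs of these markers the high bins held 7.89 UMIs of Slco1a4 in astrocyte-like and 8.63 in endothelial-like cells. Astrocyte-like cells with at most 1 UMI of these markers were also taken alone, which lessens such RNA and does not remove it. There the Slco1a4 difference went from 7.07 to 4.65 with ATV-TfR (adjusted p = 3.06e-05 by edgeR) and from 7.79 to 5.56 with ATV-CD98hc (adjusted p = 0.000146). With ATV-TfR the Slc2a1 difference went from 0.61 to 0.15 (adjusted p = 0.474 by edgeR) and that of Slc16a1 from 0.75 to 0.40 (adjusted p = 0.0577), and neither passed. Without ATV-TfR pool 1, Slc2a1 was at 0.52 (adjusted p = 0.151) and Slc16a1 at 0.51 (adjusted p = 0.228).

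Astrocyte-like cells summed over all bins were compared between treatments with 5 pools, since control IgG pool 1 had 14 such cells. Control IgG is thus 1 pool with no spread of its own, assumed to vary like the others. Of its cells 5093 are from the negative bin, 16 from low and 4 from high, while most ATV cells are from the low and medium bins. The comparisons with control IgG thus set unlike bins side by side, and several other settings gave calls there, as listed at the end. Between the ATVs 3 members were called by edgeR, where 12.3% of 18827 genes were. Dio2 read 112 in both ATV-TfR pools against 89.1 and 96.4 CPM with ATV-CD98hc (log2 difference 0.30, adjusted p = 0.00955), Slco1c1 497 and 538 against 403 and 463 CPM (0.29, adjusted p = 0.0368), and Slco1a4 6.29 and 3.01 against 21.5 and 18 CPM (-2.06, adjusted p = 0.00316). None of these groups overlapped. Cluster makeup moved with Dio2 and Slco1c1, and its part was not tested. In the low bins 58.8% and 53.7% of astrocyte-like cells were non-telencephalic with ATV-CD98hc, against 47.4% and 47% with ATV-TfR. In the negative bins these shares overlapped. Within non-telencephalic clusters the Slco1c1 difference was lost, as listed at the end. Endothelial marker RNA moved with Slco1a4: the markers summed to 65 to 256 CPM over the 5 pools, and Slco1a4 held 4.64 to 8.68 UMIs per 100 of them. Against control IgG no member was called, where 2.8% of genes were with ATV-TfR and 0.0319% with ATV-CD98hc. Without ATV-CD98hc pool 1 Slco1a4 alone passed (-1.93), with Dio2 at 0.24 (adjusted p = 0.0528) and Slco1c1 at 0.19 (adjusted p = 0.179), and in the negative bins alone the 3 differences were 0.08 for Dio2, -0.05 for Slco1c1 and 0.61 for Slco1a4, none of which passed.

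In the other classes there were 31 calls of members over 7 pairs of class and ATV, higher in the high bins except for Slc2a3 and Dio2, and endothelial marker RNA was higher in the high bins of each pair. The part of that RNA in these calls was not tested. In pericyte-like cells with ATV-TfR, Slc2a1 rose from 28.5 and 30.8 to 885 and 1010 CPM (log2 difference 5.12, adjusted p = 8.12e-11 by edgeR), Slc16a1 from 7.32 and 1.89 to 321 and 294, Slco1c1 from 6.17 and 4.41 to 785 and 803, and Slco1a4 from 13.5 and 8.18 to 1530 and 1370. With ATV-CD98hc the same 4 rose, Slc2a1 from 35.6 and 37.7 to 1030 and 1020 CPM, and Slc16a1 from 2 UMIs in both negative libraries together (ratio 210, 95% counting interval 57.9 to 1740). Of all genes tested 23.1% and 20.5% were called. Slc2a3, at 0.292 CPM in endothelial-like cells, went the other way: from 17 and 18.9 to 7.4 and 7.21 CPM with ATV-TfR (-1.16, adjusted p = 0.0133) and from 31 and 15.4 to 4.27 and 7.48 CPM with ATV-CD98hc (-1.84, adjusted p = 0.0036). Dio2 had 7 UMIs in the negative and 0 in the high pericyte-like libraries of ATV-CD98hc, at least 5.09-fold lower (adjusted p = 0.00877).

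In choroid plexus epithelial-like cells Slco1c1 read 251 and 314 CPM in negative against 611 and 555 CPM in high with ATV-TfR (log2 difference 0.96, adjusted p = 0.000201 by edgeR), and 247 and 269 against 539 and 597 CPM with ATV-CD98hc (0.93, adjusted p = 0.000206), where 23.5% and 31.4% of genes were called. Slc2a1, Slc16a1 and Slco1a4 rose there too, Slco1a4 from 52.7 and 52.8 to 245 and 180 CPM (1.93) and from 42.9 and 35.5 to 315 and 225 CPM (2.50). Dio2 went from 10 UMIs to 0 with ATV-CD98hc, at least 8.27-fold lower. Endothelial markers in these cells summed to 133 to 305 CPM in negative (8 or 10 of 12 at 0) and 1580 to 3020 CPM in high libraries.

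In microglia-like cells with ATV-CD98hc, Slc2a1 rose from 30.7 and 28.3 to 252 and 184 CPM (log2 difference 2.98, adjusted p = 7.3e-09 by edgeR), Slco1c1 from 4.25 and 11.9 to 190 and 83.5 CPM, and Slco1a4 from 1 UMI to 168 (ratio 1020, counting interval 180 to 40400), where 5.76% of genes were called. Slc16a1 was called although its groups overlapped, at 9.91 and 5.96 against 61.5 and 8.35 CPM. Endothelial markers summed to 46.2 and 53.6 CPM in negative (4 and 7 at 0) and 3850 and 1980 CPM in high. In border macrophage-like cells with ATV-TfR (6.18% called) Slco1c1 went from 0 to 95 UMIs, at least 29.1-fold higher, Slco1a4 from 0 to 153, at least 46.8-fold higher, and Slc2a1 from 24.5 and 27.7 to 469 and 149 CPM. In fibroblast-like cells with ATV-CD98hc (10.4% called) Slc2a1, Slco1c1 and Slco1a4 were called, Slc2a1 from 17.7 and 61.2 to 86.8 and 219 CPM.

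The pathway lists around these genes were set beside them in endothelial-like cells, high against negative, where 6.22% (ATV-TfR) and 4.19% (ATV-CD98hc) of all genes were called in either direction. Of 9 tested monocarboxylate carriers and chaperones, 3 were higher with ATV-TfR (Slc16a9 1.07, Bsg 1.05, Slc16a4 1.01 on the log2 scale; list median 1.01, all genes 0.0) and 2 with ATV-CD98hc (Slc16a9 1.53, Slc16a4 0.96; list median 0.77, all genes 0.09). Bsg encodes basigin, the chaperone that brings MCT1 to the membrane. Of 9 thyroid hormone carriers, Slc7a5, which pairs with CD98hc as an amino acid carrier (1.88 and 2.08), and Slco2b1 (1.39 and 1.50) were higher and Slco3a1 lower (-5.57 and -4.15) with both ATVs, with list medians of -0.34 and 0.31. None of 7 sugar carriers and none of 9 thyroid hormone metabolism and receptor genes was called. Of 17 glycolysis genes 3 were lower with ATV-TfR (Pfkp -2.06, Pfkfb3 -1.93, Ldhb -1.22; median 0.07) and 2 with ATV-CD98hc (Aldoc -3.73, Ldhb -1.68; median 0.02), and of 5 response genes Hr (-4.32) and Nrgn (-1.91) were lower with ATV-TfR and Hr (-6.17) with ATV-CD98hc. The share of arterial clusters and astrocyte marker RNA, both lower in the high than in the negative bins, moved with these counts, and their part was not tested.

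In astrocyte-like cells glycolysis genes went apart between the ATVs. Of all genes 18.9% were called with ATV-TfR, 9.75% with ATV-CD98hc and 6.72% for the difference, so counts of 2 or 3 in the shorter lists are given as values and nothing is read from them. With ATV-TfR 7 of 17 were higher (Pfkl 0.86, Ldha 0.76, Pgk1 0.67; list median 0.34, all genes -0.03), and with ATV-CD98hc 5 were lower (Ldha -0.83, Tpi1 -0.66, Pfkp -0.64; list median -0.23, all genes -0.02). The difference between the ATVs was called for 8 of 17, all higher with ATV-TfR (Ldha 1.58, Aldoc 1.18, Tpi1 1.18; list median 0.63, all genes -0.01). Summed over all bins, 11 of 17 glycolysis genes were also higher with ATV-TfR than with ATV-CD98hc and 0 lower, where 12.3% of all genes were called. The list median there was 0.26 (all genes 0.0). Against the 1 control IgG pool the list medians were 0.37 with ATV-TfR and 0.02 with ATV-CD98hc. In high against negative bins, Slc7a5 among thyroid hormone carriers was higher with both ATVs (1.76 and 1.68). Of 10 metabolism and receptor genes, the thyroid hormone receptor gene Thra was higher (0.44) and Thrb (-0.39) and Crym (-3.10), a thyroid hormone binding protein gene, lower with ATV-TfR, and Rxra was higher (1.07) and Crym lower (-2.64) with ATV-CD98hc. Of 5 response genes Thrsp was higher (0.57) and Nrgn lower (-1.35) with ATV-TfR, and Hr was higher (1.31) and Nrgn lower (-2.28) with ATV-CD98hc; of the 9 tested monocarboxylate genes 2 were higher and 2 lower with ATV-TfR (Bsg 2.05, Slc16a13 1.36 and Slc16a7 -2.39, and Slc5a8 from 2.99 and 2.22 to 0.587 and 0 CPM) and 4 higher with ATV-CD98hc (Emb 4.58, Slc16a6 1.77 and Bsg 1.25 among them). Of 7 sugar carriers, Slc2a10 was higher (0.63) and Slc2a5 lower with ATV-TfR (1.56 and 1.69 to 0 CPM in both high libraries), and Slc2a12 was higher (1.28) and Slc2a13 lower (-1.65) with ATV-CD98hc. Cluster makeup and endothelial marker RNA moved with these counts as well, and their part was not tested.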

How the data were processed

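Single-cell RNA was measured in 23 libraries. The deposited files hold raw UMI counts per gene and barcode; the submitters' processing notes list Cell Ranger 7.1.0, Seurat 4 and 5, and the builds mm10 and GRCm38, without their roles. Every deposited column of values was used (0 left out). A barcode was kept with 500 or more genes, 800 or more UMIs and no more than 10% mitochondrial UMIs (249715 of 265025). Scrublet scores ranked likely doublets, and the top 6% per library were removed (14976 cells) because its automatic thresholds marked almost none in several libraries. In other libraries these thresholds marked more cells than were removed, such as 2199 against 1083 in the low library of ATV-CD98hc pool 1.

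With scanpy 1.11.5, 2000 variable genes, chosen without the 6 members, were reduced to 50 components, and cells were clustered with 15 neighbours by Leiden (leidenalg 0.10.2, igraph 0.11.9, resolution 2, Python 3.11.15). A cluster was named where at least 3 markers of a list, and no fewer than were missing, were detected and its 10 leading genes were not led by another list, either against clusters of other lists or against all other clusters. Where several lists were detected, it also needed 2 or more markers of its own and none of the others among its leading genes. Counts were summed per class and library of at least 20 cells and tested with edgeR 4.0.16 (limma 3.58.1, R 4.3.3), by the quasi-likelihood test with TMM factors, filterByExpr and Benjamini-Hochberg adjustment over all genes tested, called at 0.05. All groups entered 1 fit, so a group with 1 library is assumed to vary like the others. DESeq2 1.42.0 was an alternative. On simulated data for high against negative bins in endothelial-like and astrocyte-like cells the edgeR test found larger changes more often than smaller ones, of which it missed most.

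Named genes were the 6 members, up to 3 called genes per pathway list and direction, and the 3 genes most like each member. Aldoa was not used because its symbol is duplicated, which left 17 of 18 glycolysis genes. The members, lists and tests were chosen with earlier results of these data known. Bins of 1 pool come from the same mice, and the main fit of the bins held no pool term. Over 25 pairs of bins the deviations of same-pool libraries correlated from -0.393 to 0.976 (median 0.277, 22 above 0.1). Intervals of counts cover counting error only. Some genes of the lists are not reported here.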

Additional observations from a re-analysis of the deposited data

Results flagged for a closer look

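In astrocyte-like cells the difference between high and negative bins itself differed between ATV-TfR and ATV-CD98hc for 2 members. For Dio2 it was 1.55 higher on the log2 scale with ATV-TfR (SE 0.22, adjusted p = 0.00032 by edgeR), and Dio2 was lower in both high than in both negative libraries of ATV-CD98hc. For Slco1c1 it was 1.06 higher (SE 0.19, adjusted p = 0.00226). The share of telencephalic clusters moved with both, and its part was not tested beyond the values within each type of cluster given above.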

How the results depend on the processing

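The number of members called per comparison stayed within 1.5 times in 271 of the values recomputed and moved in 34. For high against negative in astrocyte-like cells with ATV-TfR (3 called), 1 was called among cells with at most 1 endothelial marker UMI, and 1 to 4 when a pool was left out. For the difference between the ATVs there (2 called), 0 were called within telencephalic or non-telencephalic clusters, and 1 to 2 without a pool. In endothelial-like cells (3 called with each ATV), 0 to 4 were called without a pool for ATV-TfR and 1 to 3 for ATV-CD98hc, and 5 for ATV-TfR with the unnamed clusters (Slc2a1 and Dio2 added). The Dio2 call for control IgG low against negative became 0 with a stricter filter, in capillary and in arterial cells. Between treatments in endothelial-like cells (0 called), the low bins gave 4 for ATV-TfR against IgG, 3 for ATV-CD98hc against IgG and 4 between the ATVs, and the negative bins 2 and 1 against IgG. For astrocyte-like ATV-TfR against IgG (0 called), DESeq2, no filter and at most 1 endothelial marker UMI gave 1 each and leaving out a pool 0 to 3. For ATV-CD98hc against IgG (0 called), DESeq2, non-telencephalic clusters and negative bins gave 1 each, no filter 2, the unnamed clusters 3 and leaving out a pool 0 to 2. Between the ATVs (3 called), negative bins gave 0 and leaving out a pool 1 to 4. In the other classes (31 calls over 7 pairs of class and ATV) cells with at most 1 endothelial marker UMI gave 0 in the 4 pairs that could be fitted, where few cells remained, so that nothing is read from it. The cause was not tested.

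With the replicate block by pool, Slc2a3 in astrocyte-like cells passed for ATV-TfR high against negative (-1.17, adjusted p = 0.0324), and no other call of a high against negative comparison changed. Pool numbers do not pair mice across treatments; there the block gave 2 members for ATV-TfR and 3 for ATV-CD98hc against IgG in astrocyte-like cells.

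Direction turned, or was lost at 0.0, in 16 values. Between the ATVs in non-telencephalic astrocyte-like cells Slco1c1 was -0.27 and Dio2 -0.17. Dio2 for control IgG low against negative was 0.0 in arterial cells. With at most 1 endothelial marker UMI, microglia-like Slc16a1 was -7.24 and Slco1c1 -6.73, and pericyte-like Slco1c1 -3.35, all with ATV-CD98hc and none past the threshold. In endothelial-like cells ATV-TfR against IgG turned for Slc16a1 (-2.63 in low, -1.58 in negative bins) and Slco1c1 (-0.71, low), ATV-CD98hc against IgG for Slco1a4 (-0.48, low) and Dio2 (6.43, low, a fitted value against libraries with 0 UMIs and no measure of size), and ATV-TfR against ATV-CD98hc for Slc16a1 (-1.4, low). In astrocyte-like cells Slco1a4 was -3.56 for ATV-CD98hc against IgG in negative bins, and between the ATVs Slco1c1 was 0.0 in non-telencephalic clusters and -0.05 in negative bins, and Slco1a4 0.61 in negative bins. In 106 further member values the sign changed with neither value past the threshold, and no direction is given there. Low counts limit Slc2a3 and Dio2 in endothelial-like cells. Other size factors moved the median over all genes by more than 0.1 in endothelial-like cells: DESeq2 put it at -0.14 and -0.15 for high against negative, from 0.0 and 0.09.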
